A study of Micropterus salmoides with 24 samples.

Results

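The contigs described here were counted in all 12 trunk kidney libraries of largemouth bass and had a count of 0 in all 12 head kidney libraries. A contig is a transcript sequence assembled from reads. Of 78435 contigs in the deposited lists, 1093 met this rule, and the 200 with the highest mean level over the trunk libraries were taken as members. The level is in counts per 1000000 counts of a library (CPM). The members were chosen by their measured counts in both tissues and their trunk level, so the difference between trunk and head kidney is given as a description, with no test. None of the identifiers (0 of 78435) matched the RefSeq gene table of this species. The contigs are therefore given by identifier, with no gene name or role, and the labelled tissues were not checked against marker genes.

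The kidney of bony fish is split between a front and a rear organ. The front organ, the head kidney, is a site of blood formation and immune defence and secretes corticosteroids and catecholamines, much as adrenal glands and bone marrow do in mammals. The trunk kidney carries the nephrons, which filter the blood and move salts, water, sugars and amino acids across their epithelium, with blood-forming tissue between the tubules. Transporters and enzymes of the tubule are textbook examples of transcripts made in nephrons and hardly at all in blood-forming cells. Glyphosate is a herbicide that blocks the shikimate pathway of plants, and Rodeo is a commercial product that contains it.

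The fish were adult males kept for 21 days in clean water (control), in water with glyphosate, or in water with Rodeo, both at 10 mg/L of glyphosate. Each of the 3 treatments gave 4 head kidney and 4 trunk kidney libraries, and every library is named by its label and replicate number. Totals ran from 9871623 to 24374444 counts in head kidney and from 22259411 to 29858387 in trunk kidney. The trunk libraries listed between 46138 contigs (glyphosate 4) and 65331 (control 3). Head and trunk libraries that looked alike carried different treatment labels. Over 63 contigs that were on in some fish and off in others in both tissues, 8 of 144 pairs of a head and a trunk library matched in 96.8% of the contigs or more, and the other pairs in at most 85.7%. In 0 of these 8 pairs did the treatment labels agree. The comparisons of treatments below use the trunk labels as given, and the trunk libraries in no such pair (control 4, glyphosate 2 and 3, Rodeo 3) were also fitted alone. The RNA is from whole tissue, so fewer cells of a type and less RNA per cell cannot be told apart.

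The 12 head libraries together held 199414980 counts, and 0 of them fell on a member. A count of 0 in that total allows up to 0.01504 CPM, taking 3 counts over all head libraries as the limit. Head libraries taken singly allow up to 0.123 CPM (control 2) to 0.304 CPM (control 3). LMB_Assem.6601.C1, the member with the highest level, had 366969 counts over the trunk libraries, from 6789 to 88249 in a library. Its mean of 1266 CPM was at least 84160-fold higher than the pooled head limit. The member with the lowest mean was at least 232-fold higher. These bounds follow from the rule and from depth, and cover counting error only.

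Most contigs at this trunk level were readily counted in head kidney. Among the 19755 contigs counted in every trunk library with a mean in the range of the members, 14079 (71.3%) had over 1000 counts in the pooled head libraries, and 205 (1.04%) had 1 to 3. The 200 members were 1.01% of them. The share without a head count was 1.2% of contigs with at least 3 CPM in trunk kidney, 0.383% at 10 CPM and 0.133% at 30 CPM. It was 0.195% at 100 CPM (3 of 1536 contigs), 0.58% at 300 CPM (2 of 345) and 0.855% at 1000 CPM (1 of 117). In the other direction, 18 contigs were counted in every head library and in no trunk library, the highest being contig72245 at 14.5 CPM in head kidney. The trunk libraries together held 294244169 counts, against 199414980 in head kidney. The directions were therefore not searched at equal depth, and their numbers of contigs cannot be set against each other.

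**Figure D1:**
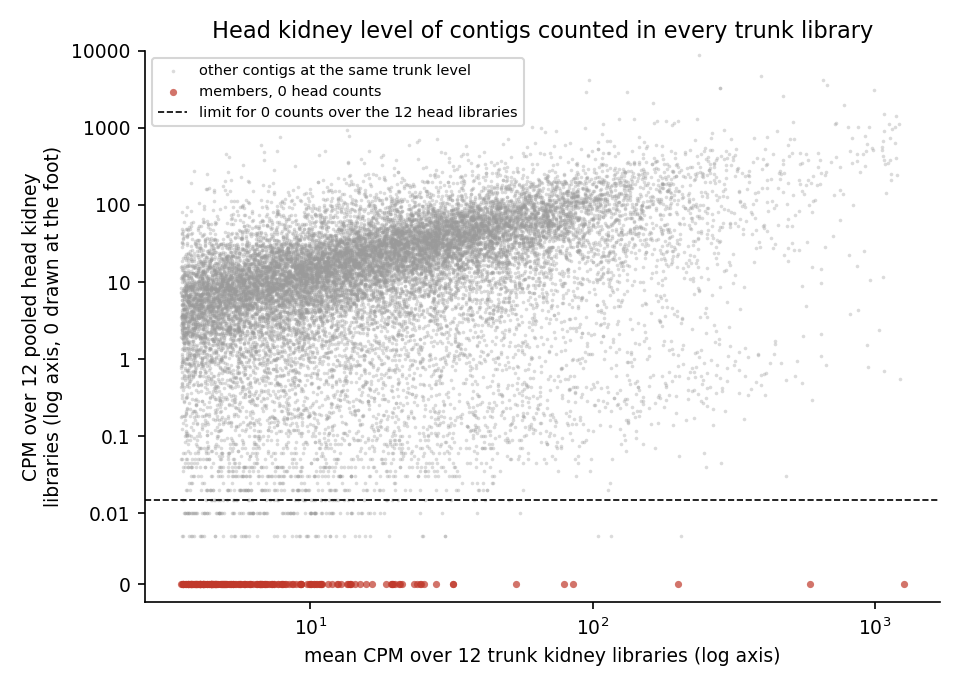
Mean CPM over the 12 trunk libraries (x, log axis) against CPM over the 12 pooled head libraries (y, log axis, 0 drawn at the foot) for contigs counted in every trunk library at the members' level. Each grey point is another contig and each red point one of the 200 members. The dashed line is the limit of 0.01504 CPM that 0 head counts allow. Members lie along the foot from 3.489 to 1266 CPM.

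Head glyphosate 3 decided more about membership than any other head library. It alone held counts of 318 contigs that had 0 counts in the other 11 head libraries and were counted in every trunk library. Of these, 161 lay at or above the lowest level of the members. The other head libraries each kept out 10 to 97 contigs in this way, of which 0 to 21 lay at that level. The counts were small, with a median of 2 and a highest of 38 in head glyphosate 3. On the trunk side, glyphosate 4 alone lacked 242 contigs that the other 11 trunk libraries and the head libraries would have admitted, 2 of them at the members' level.

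A few contigs carried most of the level. The members together had a mean of 3796 CPM, of which LMB_Assem.6601.C1 made up 33.4%, the top 2 made up 48.9% and the top 4 made up 56.4%. Above 100 CPM there were 3 members and above 10 CPM there were 49, while the median member stood at 5.74 CPM. The limit of 200 fell on a slope without a step. The last members inside it were contig53326 and contig56555, at 3.496 and 3.489 CPM. The first contigs outside it were LMB_Assem.0.CB566 and isotig99802, at 3.486 and 3.464 CPM. Every member had at least 2 counts in each trunk library, and 170 had at least 10.

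**Figure D2:**
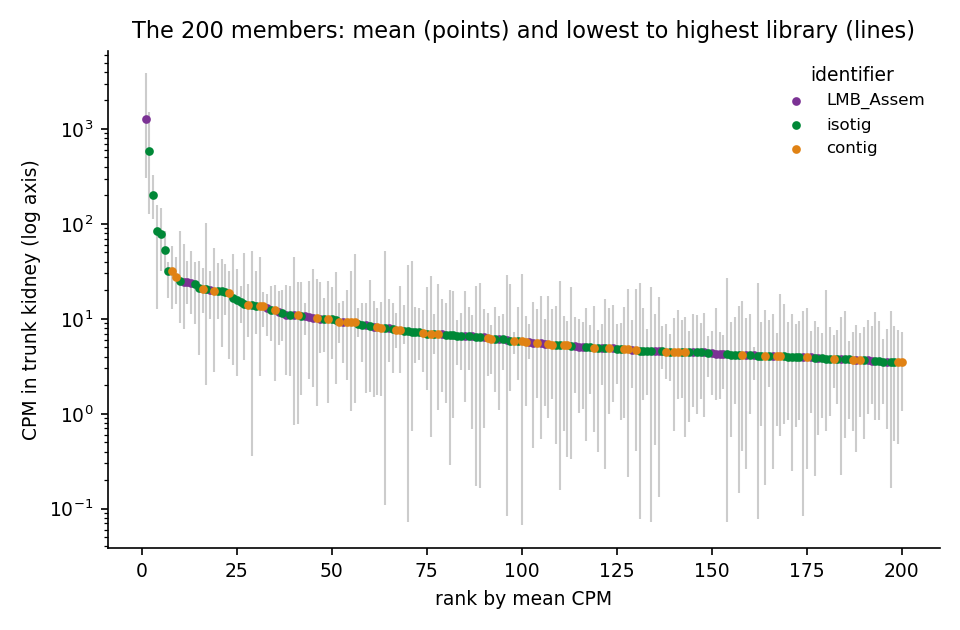
CPM in trunk kidney (log axis) of the 200 members by rank. Points are means over the 12 trunk libraries, coloured by kind of identifier, and lines run from the lowest to the highest library. After 3 members above 100 CPM the curve flattens, and the median highest library is 9.86 times the lowest.

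LMB_Assem.6601.C1 stood at 1876, 991, 405 and 763 CPM in the trunk control libraries 1 to 4. It stood at 322, 1793, 1838 and 3844 CPM in the glyphosate libraries and at 305, 854, 846.5 and 1355 CPM in the Rodeo libraries. Glyphosate 4 was highest, while control 3, glyphosate 1 and Rodeo 1 were low, so that each group had a low library and the groups overlapped. The member next in level, isotig129359, had 746, 470.0, 231 and 460.3 CPM in controls, 159, 718, 1486 and 1521 CPM with glyphosate and 126.5, 308, 333 and 500.3 CPM with Rodeo. The same 3 libraries were the lowest, and the order of the rest was close to that of LMB_Assem.6601.C1.

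The third member, isotig130454, was steadier. It had 250.4, 112, 196 and 193 CPM in controls, 152, 206, 217 and 330.1 CPM with glyphosate and 187, 111, 205 and 247 CPM with Rodeo. All 3 groups overlapped, and the highest library was 2.96 times the lowest. The fourth, isotig130419, had 154, 99.5, 156 and 67.5 CPM in controls and 112, 70.5, 65.2 and 77.2 CPM with glyphosate. With Rodeo it had 104, 41.7, 12.7 and 60.05 CPM, so Rodeo 3 was far below all other libraries.

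The member most like LMB_Assem.6601.C1 over the 12 trunk libraries was isotig131111 (Pearson r = 0.987 of log2(CPM + 1)), followed by isotig129359 (r = 0.951). The libraries share their depth and their labels as points in all such values, and no test was made. The contig isotig131111 was far less abundant, with 24.6, 15.0, 5.27 and 10.8 CPM in controls, 3.27, 27.1, 21.6 and 48.1 CPM with glyphosate and 4.45, 12.96, 10.3 and 14.8 CPM with Rodeo. Its counts were a near constant share of those of LMB_Assem.6601.C1, 1.02% to 1.52% in the 12 libraries. Those of isotig129359 were 36.1% to 60.4% of them in 11 libraries and 80.8% in glyphosate 3. The next member in likeness had r = 0.839.

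**Figure D3:**
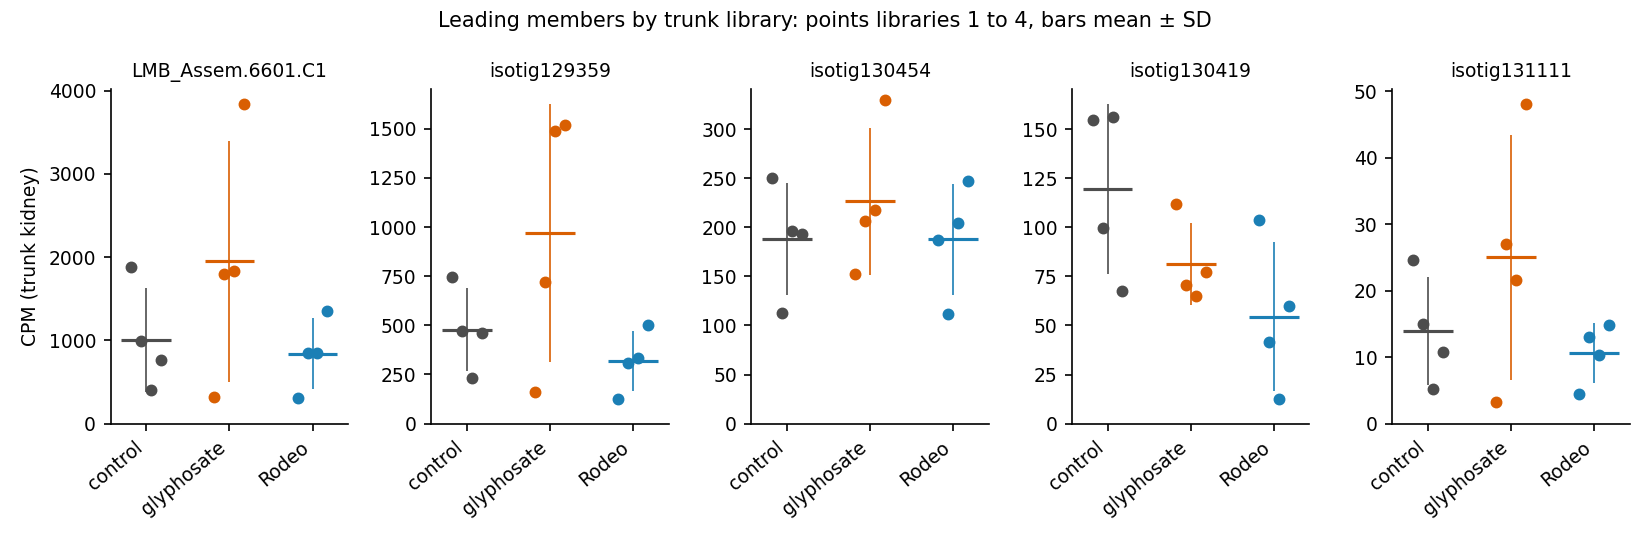
CPM of the 4 members with the highest mean and of isotig131111 in each trunk library, on a linear axis from 0. Points are libraries 1 to 4 of a group from left to right, and bars are the mean ± SD (n = 4). LMB_Assem.6601.C1, isotig129359 and isotig131111 share their low libraries, control 3, glyphosate 1 and Rodeo 1.

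Per library total, these 3 contigs set how the summed level of the members differed between libraries. Summed over all members, trunk controls stood at 3504 ± 738 CPM, glyphosate libraries at 4766 ± 1894 CPM and Rodeo libraries at 3118 ± 549 CPM (SD, n = 4 each). The lowest library was Rodeo 1 at 2548 CPM and the highest glyphosate 4 at 7201 CPM. Without the 3 contigs the groups stood at 2004 ± 374, 1821 ± 321 and 1950 ± 149 CPM. The libraries then ran from 1472 CPM (glyphosate 2) to 2347 CPM (control 3). TMM scaling is meant to correct for differences in RNA composition. Its factors ran from 0.616 (glyphosate 4) to 1.33 (control 3), the trunk libraries that listed the fewest and the most contigs. Which scaling is nearer to the true levels was not tested. With TMM-scaled CPM the sums over all members were 3186 ± 1124, 6462 ± 3916 and 2945 ± 942 CPM. On that scale LMB_Assem.6601.C1 had means of 965, 2795 and 816 CPM in control, glyphosate and Rodeo libraries. Those of isotig129359 were 446, 1363 and 308 CPM, and those of isotig131111 13.3, 35.8 and 10.15 CPM. Taken off the sums, these leave the glyphosate libraries highest on average, while per library total they were lowest.

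The other members varied in differing ways. The correlation between members over the 12 libraries had a median of 0.11 over 19900 pairs, with quartiles of -0.214 and 0.428. Of the other members, 20 had r over 0.5 with LMB_Assem.6601.C1 and 77 had r under -0.5. With TMM-scaled CPM these numbers were 39 and 41. The number of members at their highest value differed between libraries. Control 3, which listed the most (65331), held the highest value of 39 members, and control 4 (64904 listed) that of 29. Rodeo 2 (62639 listed) held the highest value of 10 members and control 2 (61979 listed) that of 7. Glyphosate 4, which listed the fewest (46138), held the lowest value of 50 members and the highest of 22. On the TMM scale glyphosate 4 held the highest value of 44 members and the lowest of 30, and glyphosate 3 the highest of 31. The part of the number of listed contigs in these orders was not tested.

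**Figure D4:**
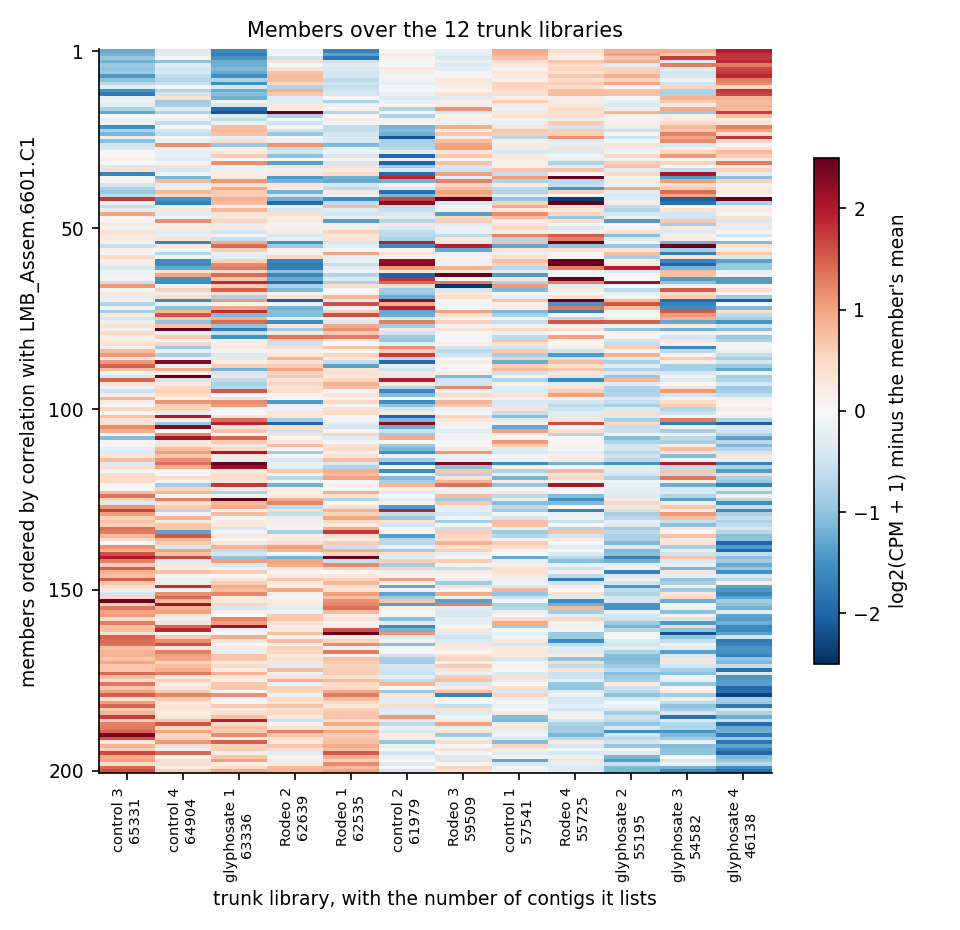
The 200 members (rows, ordered by correlation with LMB_Assem.6601.C1) in the 12 trunk libraries (columns, ordered by the number of contigs listed, printed below each). Colour is log2(CPM + 1) minus the member's mean. Glyphosate 4, with 46138 contigs listed, is high for the top rows and low for the bottom rows, and control 3, with 65331, shows the reverse. LMB_Assem.6601.C1 itself was highest in glyphosate 4 and low in control 3, so the row order builds in much of this pattern. The part of the number of contigs listed in it was not tested.

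As a group the members were more variable than other contigs of similar level. The coefficient of variation (CV, SD over mean) of CPM over the 12 trunk libraries had a median of 0.619 in members and 0.369 over the 19755 contigs in the same range. Restricted to means between 4.35 and 9.77 CPM, between the lower and upper quartiles of the members, the medians were 0.615 and 0.438. Contigs at the members' level with 1 to 10 head counts had a median of 0.544 (640 contigs). The steadiest members per library total were contig66920, at 4.29 to 7.27 CPM (CV 0.15), and LMB_Assem.8087.C1, at 2.25 to 5.01 CPM (CV 0.203). On the TMM scale they were less steady, at 3.38 to 11.8 CPM and 2.01 to 8.15 CPM. The lowest CV of any member on that scale was 0.169. In 98 members the highest library was at least 10 times the lowest.

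The most variable members were isotig122401 (CV 1.86) and isotig116644 (CV 1.82), and they varied together (r = 0.974). The contig isotig122401 had 5.33, 19.1, 2.80 and 0.315 CPM in controls, 6.30, 3.85, 0.167 and 1.39 CPM with glyphosate and 1.71, 0.11, 2.36 and 51.7 CPM with Rodeo. The contig isotig116644 had 4.97, 9.85, 1.86 and 0.315 CPM in controls, 2.45, 2.06, 0.0833 and 0.436 CPM with glyphosate and 0.27, 0.073, 1.397 and 27.02 CPM with Rodeo. Rodeo 4 was the highest library for both and control 2 came next. Rodeo 2 was the lowest for both, at no more than 3 counts (0.1095 CPM in that library), so the order of the lowest libraries is uncertain. For isotig116644, Rodeo 4 raised the mean (4.23 CPM) past the lowest member mean of 3.489 CPM.

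The kinds of identifier among the members differed from those of other contigs at their level. Identifiers beginning with isotig made up 48.0% of the members (96) and 19.5% of the 19755 contigs. Those beginning with LMB_Assem made up 26% (52) and 65.1%, and those beginning with contig made up 26% (52) and 15.4%. Put another way, 2.49% of the isotig contigs in this range were members, against 0.404% of the LMB_Assem contigs. The median mean level was similar for the 3 kinds, at 5.48 to 5.96 CPM. The rule itself fixed which contigs entered these counts, and no test was made.

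Some members share the stem of their identifier with other contigs, such as LMB_Assem.1103.C3 with LMB_Assem.1103.C5. What a shared stem means is not given in the sources used here. Such a relative was found for 21 members, 45 distinct contigs in all. The 19 members whose identifier begins with LMB_Assem.0 were not searched, as that beginning was not taken as a stem. Of the relatives that were not members, 23 reached the members' lowest level in trunk kidney. In all 23 the trunk mean was at least 39 times the head mean, with a median of 519 times, and 21 of them exceeded 100 times. The same share over all contigs at this trunk level is not given here. The highest ratio was 2830, for LMB_Assem.1103.C5, at 3868 CPM in trunk and 1.36 CPM in head kidney. An exception at low level was LMB_Assem.383.C2, which stood at 2.16 CPM in trunk and 4.96 CPM in head kidney, while its relative LMB_Assem.383.C1 was a member at 23.8 CPM. Over 34 pairs of a member and a relative counted in every trunk library, the median r over the 12 libraries was 0.715.

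Treatments were compared within trunk kidney, a contrast the rule did not use directly. The rule did rank contigs by their mean over these same 12 libraries, so a contig that is high in 1 library or group could enter through that mean. This bears on the shares of members past 2-fold and on the values of single members. LMB_Assem.1103.C3 had a control mean of 1.33 CPM per library total, under the lowest member mean of 3.489 CPM. It entered through its means with glyphosate (7.15 CPM) and Rodeo (5.24 CPM). Other named members also had a group mean under 3.489 CPM, such as contig10348 with glyphosate (1.03 CPM). The members were also more variable than contigs of similar level, and the shares of all contigs below cover every level tested. All 3 groups were fitted together over 43072 contigs with edgeR's quasi-likelihood test, and all 200 members passed its filter on low counts. Values in the following comparisons are TMM-scaled CPM unless stated, and overlap of groups was judged on that scale. For some contigs it differed with CPM per library total. No member passed an adjusted p of 0.05 in any of the 3 comparisons.

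For Rodeo against control, 0 of 200 members passed, against 0.0186% of all contigs tested (8). At an unadjusted p under 0.05 there were 8 members (4.0%), 4 higher and 4 lower, against 4.64% of all contigs (1.66% higher and 2.98% lower). This number was 18 without control 4, 13 without Rodeo 1, 5 without control 3 and 4 without Rodeo 3 (5.6%, 4.72%, 3.27% and 2.65% of all contigs). DESeq2 called 0 members, against 0.147% of all contigs. A log2 fold change above 1 was seen in 14 members (7.0%, against 3.98% of all contigs) and one below -1 in 9 (4.5%, against 5.41%). The median log2 fold change was 0.08 in members and -0.03 over all contigs. LMB_Assem.12132.C1 had 2.85, 1.08, 3.62 and 4.07 CPM in controls and 8.65, 7.45, 8.97 and 10.8 CPM with Rodeo. All 4 Rodeo libraries lay above all controls (1.62 ± 0.476 on the log2 scale, SE; adjusted p = 0.972 by edgeR). LMB_Assem.1103.C3 had 1.99, 0.131, 0.306 and 2.30 CPM in controls and 4.16, 3.54, 7.94 and 3.81 CPM with Rodeo, also without overlap (2.05 ± 0.79 on the log2 scale, SE; adjusted p = 0.972 by edgeR).

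On the lower side, LMB_Assem.0.C5868 had 39.4, 35.6, 31.0 and 15.9 CPM in controls and 19.2, 20.6, 14.1 and 17.5 CPM with Rodeo. Control 4 lay among the Rodeo libraries (-0.77 ± 0.291 on the log2 scale, SE; adjusted p = 0.972 by edgeR). The abundant isotig130419 differed by -1.14 (SE 0.474, edgeR adjusted p = 0.972), with overlapping groups. Groups did not overlap in 3 members, 1.5% of them, against 4.43% of all contigs.

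For glyphosate against control, again 0 of 200 members passed, against 0% of all contigs tested. An unadjusted p under 0.05 was reached by 37 members (18.5%), 27 higher and 10 lower, against 10.5% of all contigs (5.78% higher and 4.72% lower). DESeq2 called 0 members, against 1.92% of the contigs it gave an adjusted p, but 195 members had none. A log2 fold change above 1 was seen in 43 members (21.5%, against 6.98% of all contigs) and one below -1 in 24 (12%, against 10.6%). The medians were near 0, at 0.03 in members and -0.08 over all contigs. Of the 27 higher members, 14 had r over 0.5 with LMB_Assem.6601.C1 on the TMM scale. In all, 39 members other than LMB_Assem.6601.C1 had such an r, and these include the 14. These r include the difference between glyphosate and control that picked the 27, so the 2 traits are not independent. The number under 0.05 was 18 without control 3 (5.54% of all contigs), 24 without glyphosate 4 (6.55%) and 67 without glyphosate 1 (19.1%). With library totals as the only scaling it was 28 members (14.0%, against 14.0% of all contigs), 10 higher and 18 lower, and the median of all contigs moved to -0.53.

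Of the members higher with glyphosate, LMB_Assem.1103.C3 had the smallest p, with 3.504, 6.31, 22.1 and 4.40 CPM with glyphosate against 1.99, 0.131, 0.306 and 2.30 CPM in controls. The groups did not overlap on the TMM scale (2.95 ± 0.813 on the log2 scale, SE; adjusted p = 0.461 by edgeR). Glyphosate 3 was its highest library, and without it the value was 2.01 (SE 0.736). Per library total the groups overlapped, with control 4 at 2.91 CPM and glyphosate 4 at 2.70 CPM. The contig isotig84981 had 4.71, 5.10, 8.97 and 13.6 CPM with glyphosate and 3.18, 3.27, 3.25 and 2.83 CPM in controls, also apart on the TMM scale (1.37 ± 0.387 on the log2 scale, SE; adjusted p = 0.461 by edgeR). Per library total its groups overlapped, with control 3 at 4.30 CPM and glyphosate 2 at 4.09 CPM. With library totals as the only scaling its log2 fold change was 0.79 (SE 0.353). Neither contig passed the threshold.

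Among those lower, contig10348 had 0.73, 1.75, 1.63 and 1.06 CPM with glyphosate and 6.59, 1.73, 4.56 and 5.18 CPM in controls. Control 2 lay just below the highest glyphosate library (-1.80 ± 0.464 on the log2 scale, SE; adjusted p = 0.461 by edgeR). The contig isotig99994 had 0.584, 2.23, 1.74 and 2.48 CPM with glyphosate and 7.16, 5.39, 3.77 and 31.7 CPM in controls (-2.78 ± 0.725 on the log2 scale, SE; adjusted p = 0.461 by edgeR). Its groups lay apart, and control 4 was far above the other controls. Without control 4 the value was -1.64 (SE 0.573). Groups did not overlap in 10 members, 5.0% of them, against 4.18% of all contigs.

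The 3 contigs that varied together stood higher on average with glyphosate, without passing the threshold. LMB_Assem.6601.C1 was at 2795 ± 2499 CPM with glyphosate, 965 ± 732 CPM in controls and 816 ± 508 CPM with Rodeo on the TMM scale (SD, n = 4 each). Its log2 fold change against control was 1.53 with glyphosate (SE 0.784, edgeR adjusted p = 0.495) and -0.24 with Rodeo (SE 0.767, edgeR adjusted p = 0.993). For isotig129359 the glyphosate value was 1.61 (SE 0.719) and for isotig131111 it was 1.43 (SE 0.746), with edgeR adjusted p = 0.47 and 0.501. Without glyphosate 4 the value for LMB_Assem.6601.C1 was 0.77 (SE 0.754), and with library totals as the only scaling it was 0.95 (SE 0.629). The glyphosate libraries 2, 3 and 4, in which these contigs were high, listed 55195, 54582 and 46138 contigs, and glyphosate 1, in which they were low, listed 63336. The part of this difference between libraries was not tested.

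**Figure D5:**
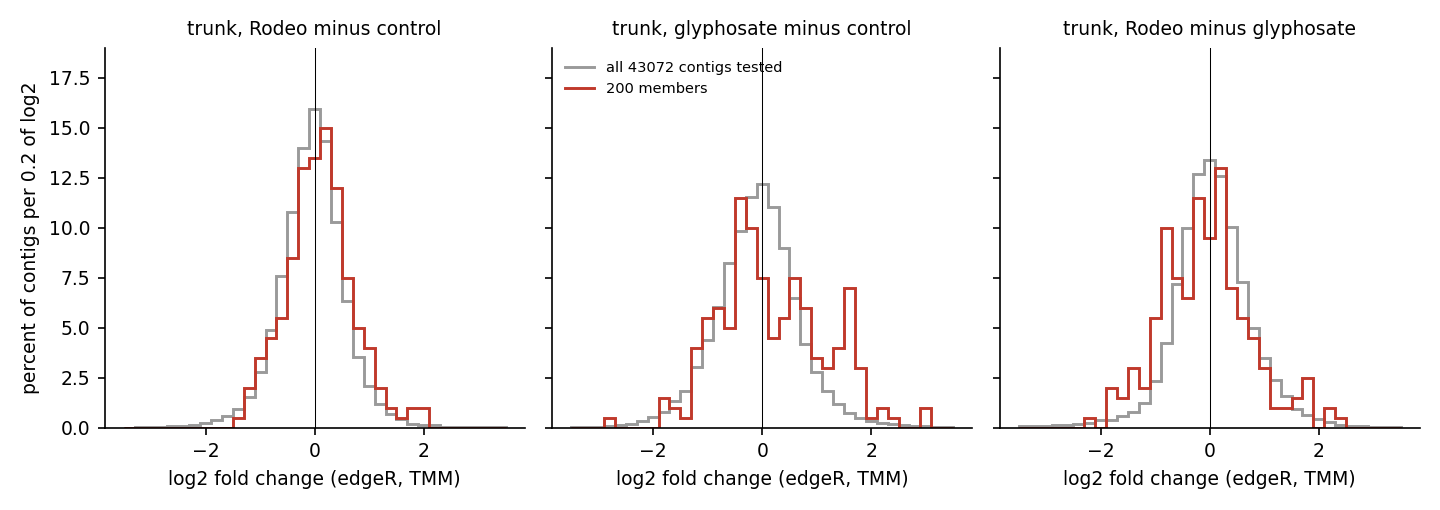
Distribution of log2 fold changes (edgeR, TMM scaling) in trunk kidney for the 200 members (red) and for all 43072 contigs tested (grey), as a percent of contigs per bin, for the 3 comparisons. For glyphosate minus control the members have a shoulder on the right, where 21.5% of them lie above 1 against 6.98% of all contigs. The members were more variable than contigs of similar level, and no share is given for such contigs. With library totals as the only scaling the median of all contigs in that comparison moves from -0.08 to -0.53.

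Rodeo was also set against glyphosate, which tests the difference between the exposures themselves, since the 2 comparisons above share their controls. Of 200 members 0 passed, against 0% of all contigs tested. An unadjusted p under 0.05 was reached by 23 members (11.5%), 8 higher and 15 lower with Rodeo, against 7.65% of all contigs (2.97% higher and 4.68% lower). With the replicate number as a block there were 24 members, 12 higher and 12 lower, against 6.86% of all contigs. A log2 fold change above 1 was seen in 17 members (8.5%, against 8.55% of all contigs) and one below -1 in 27 (13.5%, against 5.75%). With library totals as the only scaling there were 19 (9.5%, against 9.28% of all contigs), of which 16 were higher and 3 lower, and the median of all contigs moved from 0.03 to 0.42. The number was 12 without glyphosate 4, 11 without Rodeo 1 and 37 without glyphosate 1 (4.62%, 4.86% and 15.4% of all contigs).

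Among members higher with Rodeo, contig10348 had 3.32, 5.97, 2.93 and 6.06 CPM, above all 4 glyphosate libraries (1.82 ± 0.464 on the log2 scale, SE; adjusted p = 0.301 by edgeR). DESeq2 gave this contig an adjusted p of 0.0253, the sole member it called in any comparison, against 0.753% of all contigs in this one. The contig contig08077 had 8.28, 4.59, 3.75 and 2.83 CPM with Rodeo and 2.59, 2.19, 1.03 and 1.06 CPM with glyphosate, without overlap on the TMM scale (1.49 ± 0.444 on the log2 scale, SE; adjusted p = 0.437 by edgeR). Per library total its groups overlapped, with Rodeo 4 at 2.60 CPM and glyphosate 1 at 2.90 CPM.

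Among those lower, isotig40264_1 had 7.59, 3.63, 21.8 and 7.67 CPM with Rodeo and 26.7, 25.7, 25.3 and 54.2 CPM with glyphosate, without overlap (-1.70 ± 0.56 on the log2 scale, SE; adjusted p = 0.524 by edgeR). Without Rodeo 3, the highest of the Rodeo libraries, the value was -2.40 (SE 0.539). Per library total the groups overlapped, with Rodeo 3 at 22.1 CPM and glyphosate 3 at 19.4 CPM. The contig isotig126981 had 4.89, 4.77, 6.30 and 4.05 CPM with Rodeo and 12.01, 9.91, 17.6 and 5.53 CPM with glyphosate, where glyphosate 4 overlapped the Rodeo libraries (-1.17 ± 0.384 on the log2 scale, SE; adjusted p = 0.522 by edgeR). Groups did not overlap in 8 members, 4.0% of them, against 4.19% of all contigs.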

How the data were processed

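The authors deposited whole-number read counts per contig for 24 libraries, not normalized, and contigs left out of a list were taken as 0. The submitters' processing notes name edgeR, DESeq, SAMtools and cutadapt. How the contigs were assembled, which aligner and counter were run and whether strand was used is not stated in the labels. Reads can be split among contigs that are nearly the same, which makes a single contig's value, a 0 included, uncertain. Members and named contigs were chosen with earlier results of these data known. Named were the 4 members highest in level, the 2 steadiest and 2 most variable, the last 2 inside and first 2 outside the limit, the 2 most like the first, and per comparison the 2 higher and 2 lower with the smallest p. LMB_Assem.1103.C5, LMB_Assem.383.C1, LMB_Assem.383.C2, contig72245, isotig129505, isotig06456, isotig102186, isotig86007 and isotig124955 were named after their values were seen.

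CPM are per library total, or TMM-scaled where stated. Fits used edgeR 4.0.16 in R 4.3.3 (filterByExpr, then TMM, then the quasi-likelihood F test with p-values adjusted by Benjamini-Hochberg over 43072 contigs), and DESeq2 1.42.0 as an alternative. The edgeR fit was also run on simulated counts with the same spread for all contigs and no differences in RNA composition. That outcome is not given here, so it does not show which fold changes could be found in these libraries. The SE is the log2 fold change over the square root of F. Trunk libraries of a group differed by more than sampling noise (chi-square per degree of freedom 33.0 to 157.6), so none was counted as a duplicate. Separate tanks are not stated in the labels. The p-values set a difference between groups against the spread of the libraries only, which may be technical. Counting intervals cover counting error only, as no molecular identifiers are stated. Same-numbered trunk glyphosate and Rodeo libraries deviated together in 4 of 4 pairs (r from 0.107 to 0.207, from the data, not the labels). No other comparison met this (r from -0.267 to 0.355). These r are small. Differently numbered glyphosate and Rodeo libraries had r from -0.158 to 0.109, and differently numbered glyphosate and control libraries from -0.404 to 0.312.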

Additional observations from a re-analysis of the deposited data

Results flagged for a closer look

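In 7 of the 60 groups of the 20 named members, 1 library of 4 stood apart from the other 3 by a gap past Dixon's 95% limit. Several of these members were named for a large CV or a small p in these same libraries. Chance alone gives about 1 in 20 groups where values are normally distributed, and 52 of the 600 groups of all members (8.67%) passed it. The share over all contigs was not taken. Rodeo 4 stood at 27.02 CPM for isotig116644, against 0.073 to 1.397 CPM in the other Rodeo libraries. It stood at 51.7 CPM for isotig122401, against 0.11 to 2.36 CPM. Control 4 stood at 40.2 CPM for isotig99994, against 4.99 to 6.77 CPM in the other controls. Control 2 stood at 1.77 CPM for contig10348, against 6.04 to 6.57 CPM, and at 2.51 CPM for isotig40264_1, against 12.97 to 13.8 CPM. Glyphosate 3 stood at 16.9 CPM for LMB_Assem.1103.C3, against 2.70 to 5.06 CPM in the other glyphosate libraries. Rodeo 2 stood at 4.02 CPM for LMB_Assem.8087.C1, against 4.80 to 4.94 CPM. These values are per library total. On the TMM scale control 2 stood at 1.73 CPM for contig10348, against 4.56 to 6.59 CPM in the other controls. For isotig40264_1 it stood at 2.45 CPM, against 9.80 to 14.5 CPM. Rodeo 2 stood at 3.30 CPM for LMB_Assem.8087.C1, against 4.01 to 5.33 CPM. On that scale these gaps did not reach the limit, and the remaining ones stayed past it.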

How the results depend on the processing

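With 1 library left out, 0 members passed in any comparison. The 12 named effects kept their direction in all 228 alternative fits. They were picked by the smallest p in these same libraries, and some fits left out a library of the group not compared. A change of direction was therefore unlikely from the start. All contigs passing ranged from 1 to 10 for Rodeo against control, 0 to 1 for glyphosate against control and 0 to 38 for Rodeo against glyphosate. With the replicate number as a block 0 members passed, and 1 contig in all for Rodeo against glyphosate. DESeq2 called 62, 41 and 323 contigs in the same order, with 1 member (contig10348, log2 fold change 1.81) in the last. It gave no adjusted p to 195 members for glyphosate against control. Library totals alone gave 4 contigs for Rodeo against control, and fitting without a filter gave 3 for Rodeo against glyphosate. The 4 trunk libraries in no matched pair gave 192, 250 and 158 contigs and 1, 2 and 1 members. There 1 control and 1 Rodeo library are assumed to vary like 2 glyphosate libraries. The members were isotig86007 (higher with Rodeo in both comparisons), isotig124955 (4.597) and isotig99994 (-3.97). For isotig99994 the single control is the library that stood apart. The cause of these differences was not tested.

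The rule was met by 343 contigs with at least 10 counts in every trunk library, 952 at an equal depth of 9000000 counts (194 of the 200 members among them), 1341 with at most 1 count in every head library, and 1103 to 1411 with a library left out. The summed level of members per library total moved to 2004, 1821 and 1950 CPM (control, glyphosate, Rodeo) without the 3 contigs that varied together. That alternative was chosen after seeing the data. On the TMM scale the group means without these contigs leave glyphosate highest. The summed level ranged over 3153 to 3676, 3955 to 5444 and 2872 to 3307 CPM with a library left out. The median CV ranged from 0.577 to 0.64.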

Other observations

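Among contigs that are no members, the one most like LMB_Assem.6601.C1 over the 12 trunk libraries was isotig129505 (r = 0.952), at 206 CPM in trunk kidney with 1 count over all head libraries. That count lay in head glyphosate 2 and alone kept it out of the members. The contigs next in likeness were counted readily in head kidney, among them isotig06456 (r = 0.935), at 218 CPM in trunk and 163 CPM in head kidney. Others of them were far lower in head kidney, such as isotig102186 (r = 0.927), at 26.6 CPM in trunk and 1.205 CPM in head kidney.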
